A study of Homo sapiens with 12 samples.

Results

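Expression of 10 genes of ceramide and sphingosine metabolism was examined in HepaRG, a human hepatic cell line able to adopt hepatocyte-like or biliary-like states, in a study that its title places in liver fibrosis. The genes were chosen by symbol, as enzymes of the sphingolipid pathway that palmitate feeds, and are 10 of the 58735 genes in the table. They are SPTLC1, SPTLC2, DEGS1, CERS2, CERS5, CERS6, UGCG, SGMS1, SPHK1 and SPHK2. The 12 libraries form 4 groups of 3, all of them wild type by their labels. PA+BMS cells were given BMS-309403 at 50 µM, a compound that inhibits FABP4, a carrier of fatty acids in the cytosol, for 24 h, and deuterium-labelled palmitate at 400 µM for 4 h. PA+OA cells were given the same palmitate with 200 µM oleate for 4 h, and PA cells palmitate alone for 4 h. Control cells had none of these agents. No group here had BMS-309403 or oleate alone, so each of these is seen only on top of palmitate, and BMS-309403 also stands for a longer treatment. RNA was measured in bulk, where fewer cells of a type and less RNA per cell cannot be told apart. Since no label says that replicates came from separate cultures, p-values measure a spread between libraries that may be technical.

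Sphingolipid synthesis begins when serine palmitoyltransferase joins serine to palmitoyl-CoA, the activated form of palmitate. The product is reduced, N-acylated by ceramide synthases to dihydroceramide and desaturated to ceramide. Ceramide is then built into sphingomyelin or glucosylceramide, or broken down to sphingosine, which sphingosine kinases phosphorylate to the signalling lipid sphingosine 1-phosphate. In the liver this pathway is best known for the accumulation of ceramide under an excess of saturated fat.

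Promoter sequence is shown for 3 genes with a called change of opposite sign when BMS-309403 was added to palmitate, SPHK1, which fell, and UGCG and SGMS1, which rose. The stretches come from RefSeq on GRCh38.p14, which holds a promoter for 9 of the 10 genes, and were trimmed to bases outside annotated exons. Where a gene has several starts, the start with the longest such stretch was used. By the gene bounds given below, the UGCG stretch lies before the gene. The SPHK1 and SGMS1 stretches lie inside their genes, before RefSeq starts within those bounds. Capitals mark an AP-1 site (TGANTCA) in SPHK1 and GC boxes (GGGCGG or its reverse complement) in the other 2. Both motifs were sought on both strands.
SPHK1, chr17:76385170-76385277, plus strand, the 108 bases before 1 of its 3 RefSeq starts: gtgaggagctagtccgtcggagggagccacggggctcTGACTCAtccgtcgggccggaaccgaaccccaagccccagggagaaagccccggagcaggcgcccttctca
UGCG, chr9:111896564-111896765, plus strand, bases 250 to 49 before its start: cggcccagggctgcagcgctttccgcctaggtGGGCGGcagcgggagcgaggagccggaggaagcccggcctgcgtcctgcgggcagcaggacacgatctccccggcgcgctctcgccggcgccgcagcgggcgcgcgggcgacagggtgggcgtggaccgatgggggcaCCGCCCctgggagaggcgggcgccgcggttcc
SGMS1, chr10:50623984-50624206, minus strand, bases 250 to 28 before its start: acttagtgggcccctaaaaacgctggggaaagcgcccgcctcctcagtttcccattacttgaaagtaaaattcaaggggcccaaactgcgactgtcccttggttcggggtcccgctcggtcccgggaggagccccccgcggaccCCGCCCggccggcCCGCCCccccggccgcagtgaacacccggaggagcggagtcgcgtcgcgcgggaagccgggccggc
The SPHK1 stretch holds 1 AP-1 site and no GC box. An AP-1 site stands in 3.02% of the 35116 promoters in the table over the same window. The UGCG stretch holds 2 GC boxes, a motif present in 35.4% of promoters over its window, and the SGMS1 stretch also holds 2, against 39.3%. These matches describe letters only, and no binding was measured.

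Libraries were compared before the genes. The deposited unit is FPKM, fragments scaled to gene length and library size. Reads recovered from it summed to between 16059128 and 19971190 per library, and the 11856 genes at 1 FPKM or more in 3 or more libraries were tested. Of the 10 hepatocyte marker genes, 0 reached 1 FPKM in any group, and ALB and FABP1 were at 0 in all 12 libraries. Of the 6 bile duct and simple epithelial markers, 3 reached 1 FPKM, and their summed level was 372 to 427 FPKM in PA+BMS libraries, 955 to 1739 FPKM in PA+OA, 1029 to 1286 FPKM in PA and 872 to 1051 FPKM in control. Summed markers of stellate cells or fibroblasts ran between 2.69 and 2.98 FPKM in PA+BMS libraries, where 2 of 6 reached 1 FPKM, 4.25 and 4.72 FPKM in PA+OA, 4.92 and 5.57 FPKM in PA and 4.76 and 5.08 FPKM in control. Of the 4 macrophage markers, summed at 0.54 to 0.61 FPKM in PA+BMS libraries, 1.77 to 1.91 FPKM in PA+OA, 1.63 to 2.10 FPKM in PA and 1.51 to 2.20 FPKM in control, 1 reached 1 FPKM in some library and CD163 was at 0 in all 12. Of the 4 endothelial markers, summed at 0.36 to 0.45 FPKM in PA+BMS libraries, 0.29 to 0.43 FPKM in PA+OA, 1.04 to 1.32 FPKM in PA and 1.36 to 1.80 FPKM in control, 1 reached 1 FPKM in some library. A principal component analysis placed 54.4% of the variance on component 1, whose loadings tracked the GC content of transcripts (Spearman rho 0.68 across genes, a description, since genes are no replicates). PA+OA replicate 1 stood highest on it, at 54.6, and PA+BMS replicate 3 lowest, at -51.5, while the remaining libraries lay between -27.1 and 28.0. Changes are therefore also given with the dependence on GC content and gene length taken out of every library (below, the GC and length trend), and without these 2 libraries.

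The 10 genes covered a wide range of levels. DEGS1 was the highest of them in every library, between 53.0 and 77.6 FPKM, followed by CERS2 and SPHK1. CERS6 was the lowest, between 0.500 and 1.96 FPKM, on 57 to 282 reads, and it passed the filter through the PA+BMS libraries alone, so it is left out of the counts below, which are over the other 9 genes. Levels between genes are compared here on FPKM, which is scaled to gene length.

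**Figure D1:**
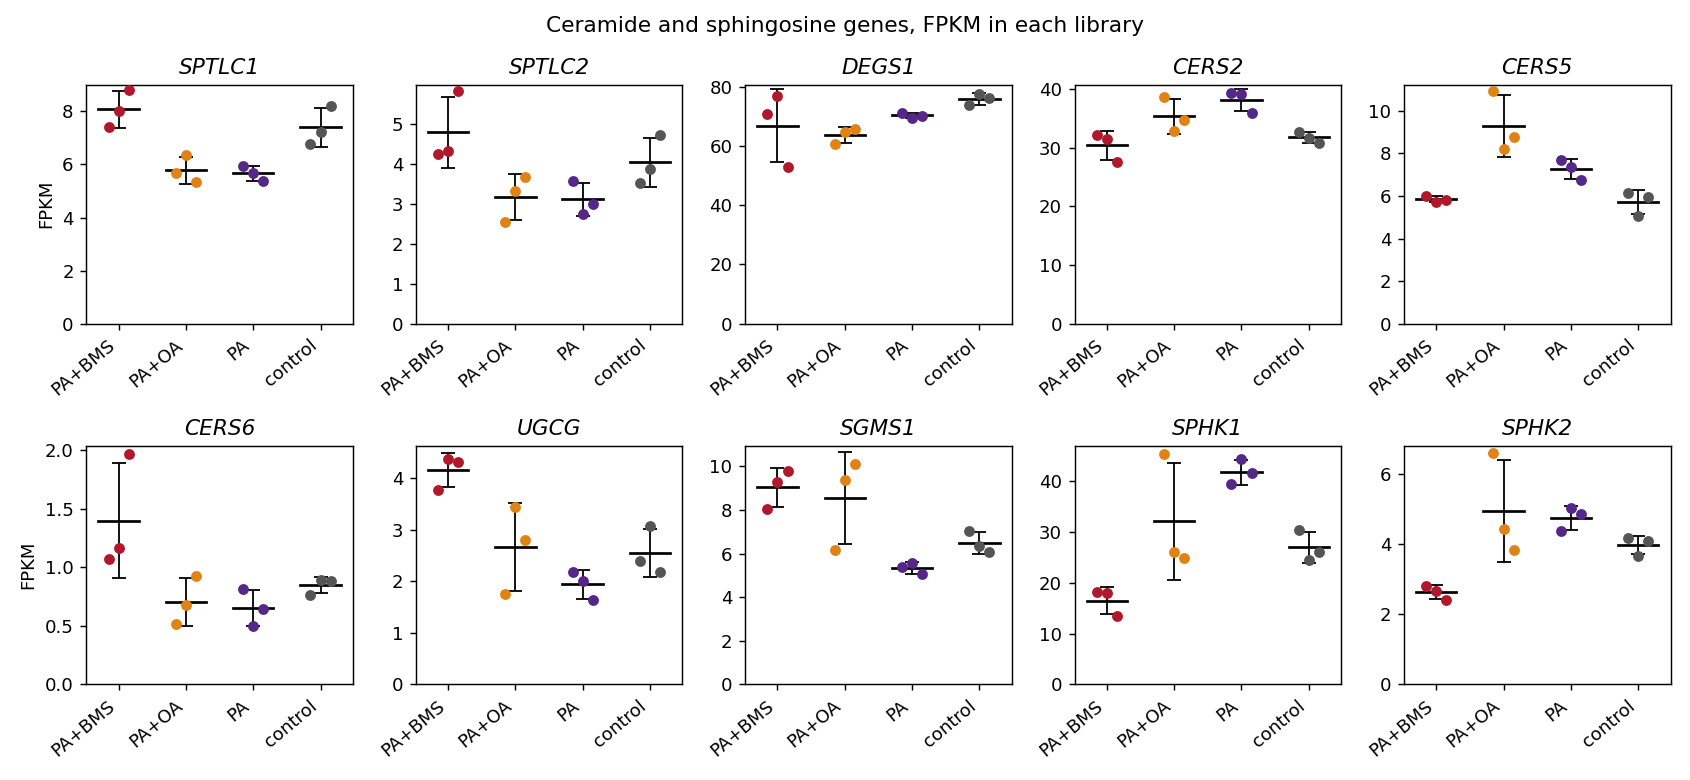
FPKM of each gene in each of the 12 libraries, by group, with the group mean (line) and SD (bar), 3 libraries a group. SPHK1 in PA+BMS libraries sits between 13.4 and 18.1 FPKM, below every library of the other groups, while UGCG in PA+BMS sits above all of them.

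SPTLC1 and SPTLC2 encode the subunits of serine palmitoyltransferase, the first and rate-limiting enzyme of the pathway. SPTLC1 had 7.40, 7.9995 and 8.82 FPKM in PA+BMS libraries, 5.67, 6.34 and 5.35 FPKM in PA+OA, 5.92, 5.69 and 5.37 FPKM in PA and 6.76, 7.24 and 8.21 FPKM in control. Every PA and PA+OA library was below every control and every PA+BMS library, while PA+BMS and control overlapped. SPTLC2, which carries the catalytic lysine, had 4.26, 4.32 and 5.83 FPKM in PA+BMS libraries, 2.55, 3.33 and 3.68 FPKM in PA+OA, 3.58, 2.76 and 3.004 FPKM in PA and 3.52, 3.88 and 4.73 FPKM in control. All 3 PA+BMS libraries were above all PA and PA+OA libraries, and the highest of them was PA+BMS replicate 3. In the order of group means for SPTLC2 (PA+BMS, control, PA+OA, PA), no neighbouring groups differed by the test, and for SPTLC1, in the same order, only PA+OA against control did.

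CERS2, CERS5 and CERS6 encode ceramide synthases with different acyl-chain preferences: CERS2 uses very-long-chain acyl-CoA and is the main form in liver, while CERS5 and CERS6 prefer palmitoyl-CoA. CERS5 (chr12:50129306-50167533, minus strand) had 5.99, 5.73 and 5.83 FPKM in PA+BMS libraries, 10.9, 8.20 and 8.75 FPKM in PA+OA, 7.69, 7.38 and 6.74 FPKM in PA and 6.12, 5.07 and 5.94 FPKM in control. Its 3 PA+OA libraries were above all 9 others, its PA libraries came next, and PA+BMS and control overlapped. CERS2 had 32.2, 31.5 and 27.5 FPKM in PA+BMS libraries, 38.7, 32.8 and 34.7 FPKM in PA+OA, 39.4, 39.2 and 36.0 FPKM in PA and 32.8, 31.7 and 30.9 FPKM in control. The PA libraries were above all PA+BMS and control libraries and overlapped those of PA+OA. CERS6 had 1.07, 1.16 and 1.96 FPKM in PA+BMS libraries, 0.519, 0.675 and 0.925 FPKM in PA+OA, 0.810, 0.500 and 0.647 FPKM in PA and 0.766, 0.890 and 0.879 FPKM in control, so that only PA+BMS libraries exceeded 1 FPKM. No test is given for CERS6, since PA+BMS alone brought it past the filter. No neighbouring groups in the order of means differed by the test for CERS2 or CERS5.

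DEGS1 encodes the desaturase that turns dihydroceramide into ceramide. It had 70.9, 76.9 and 53.0 FPKM in PA+BMS libraries, 60.6, 64.8 and 65.6 FPKM in PA+OA, 71.3, 69.6 and 70.2 FPKM in PA and 73.8, 77.6 and 76.4 FPKM in control. The lowest of the 12 was PA+BMS replicate 3, one of the libraries that stood apart, and DEGS1 passed the test in none of the 6 comparisons. The largest of its 6 differences was -0.25 on the log2 scale (SE 0.13), in PA+OA against control, with a 95% interval of -0.54 to 0.035.

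UGCG and SGMS1 draw on ceramide. UGCG, glucosylceramide synthase (GRCh38 chr9:111896766-111935369, plus strand), had 3.78, 4.38 and 4.32 FPKM in PA+BMS libraries, 1.76, 3.44 and 2.80 FPKM in PA+OA, 2.19, 2.01 and 1.64 FPKM in PA and 2.39, 3.08 and 2.19 FPKM in control. Every PA+BMS library was above every other library, and the remaining 3 groups overlapped each other. SGMS1, the Golgi sphingomyelin synthase (chr10:50305586-50625163, minus strand), had 8.06, 9.27 and 9.81 FPKM in PA+BMS libraries, 6.16, 9.38 and 10.1 FPKM in PA+OA, 5.37, 5.59 and 5.05 FPKM in PA and 7.02, 6.36 and 6.07 FPKM in control. PA libraries were the lowest 3 of the 12, and within PA+OA, replicate 1 lay among the control libraries while the other 2 were above them.

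SPHK1 and SPHK2 encode the sphingosine kinases, SPHK1 mainly cytosolic and SPHK2 found in the nucleus and mitochondria. SPHK1 (chr17:76376584-76387860, plus strand) had 18.1, 17.9 and 13.4 FPKM in PA+BMS libraries, 45.3, 26.0 and 24.8 FPKM in PA+OA, 39.3, 44.2 and 41.5 FPKM in PA and 30.3, 24.4 and 26.1 FPKM in control. The PA+BMS libraries were the lowest 3 of the 12 and PA was above control throughout, whereas PA+OA split, with replicate 1 above every PA library and replicates 2 and 3 in the range of control. SPHK2 (chr19:48619291-48630717, plus strand) had 2.81, 2.67 and 2.42 FPKM in PA+BMS libraries, 6.60, 4.42 and 3.85 FPKM in PA+OA, 4.36, 5.02 and 4.85 FPKM in PA and 4.17, 3.67 and 4.07 FPKM in control. Again the PA+BMS libraries were the lowest 3, and the highest of all was PA+OA replicate 1. SPHK1 overlaps PRPSAP1 on the opposite strand, SPHK2 overlaps RPL18 and DBP, and CERS2 overlaps SETDB1, each above 1 FPKM in these cells. The strand setting of the counting is not given in the sources used here, so reads shared with these neighbours are uncertain.

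The PA group was set against control to ask what palmitate alone did. SPHK1 rose by 0.62 on the log2(FPKM + 1) scale (SE 0.20, limma adjusted p = 0.0413), with a mean of 41.7 ± 2.48 FPKM in PA and 26.9 ± 3.03 FPKM in control (SD, n = 3 each). SPTLC1 fell by 0.33 (SE 0.11, limma adjusted p = 0.0370), with a mean of 5.66 ± 0.28 FPKM in PA and 7.40 ± 0.74 FPKM in control. These 2 of the 9 genes were called, 1 in each direction, where 27.6% of all tested genes were called, 12.8% upward and 14.8% downward. The median log2 change of the 9 was -0.11, against 0.028 over all tested genes. CERS5, at 0.30 (limma adjusted p = 0.0639), and CERS2, at 0.26 (limma adjusted p = 0.0807), missed the threshold. With the GC and length trend removed, SPHK1 was at 0.28 (limma adjusted p = 0.0768) and SPTLC1 at 0.064, and neither was called. When library totals were set equal, the median over all genes was -0.21, SPHK1 was at 0.35 (limma adjusted p = 0.109) and SPTLC1 at -0.63 (limma adjusted p = 0.0161). With 1 library left out at a time, SPHK1 lost its call without PA+BMS replicate 1 or 2, control replicate 2 or 3 or any of the PA replicates (limma adjusted p up to 0.142), and SPTLC1 without PA+BMS replicate 2 or the same PA and control replicates (limma adjusted p = 0.0529 to 0.136). Without the 2 libraries that stood apart, which are not in these groups but enter the pooled spread, 6 of the 9 were called, 3 in each direction, where 57.6% of all tested genes were. The summed endothelial markers were lower in all PA libraries than in all control libraries, and their part was not tested.

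PA+OA was set against PA to ask what oleate did in the presence of palmitate. SGMS1 rose by 0.57 (SE 0.15, limma adjusted p = 0.0376), with a mean of 8.56 ± 2.11 FPKM in PA+OA and 5.34 ± 0.27 FPKM in PA (SD, n = 3 each). It was the 1 gene of 9 called, where 7.91% of all tested genes were called, 4.01% upward and 3.91% downward. With the GC and length trend removed, SGMS1 was at 0.51 (limma adjusted p = 0.0133) and SPHK1, below, at -0.38 (limma adjusted p = 0.0266), which made 2 of 9 where 13.4% of all tested genes were called. SPHK1 had a difference of -0.42 (SE 0.20, limma adjusted p = 0.264), with a mean of 32.0 ± 11.5 FPKM in PA+OA and 41.7 ± 2.48 FPKM in PA. PA+OA replicate 1 decided this value: without it alone, SPHK1 was at -0.69 (limma adjusted p = 0.00732). Without both it and PA+BMS replicate 3, SPHK1 was at -0.69 (limma adjusted p = 0.00111), SGMS1 at 0.76 (limma adjusted p = 0.000474) and UGCG at 0.48 (limma adjusted p = 0.0249), so that 3 of 9 were called where 25.7% of all tested genes were. SGMS1 lost its call without PA+BMS replicate 2, PA+OA replicate 2 or 3, control replicate 2 or 3 or any of the PA replicates (limma adjusted p = 0.0549 to 0.140). With library totals set equal it was at 0.66 and not called (limma adjusted p = 0.152). The summed stellate or fibroblast and endothelial markers were each lower in all PA+OA libraries than in all PA libraries. Their part in these values was not tested. Among the others, CERS5 was at 0.31 (limma adjusted p = 0.132) and SPTLC1, SPTLC2 and SPHK2 were each within 0.03 of 0.

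**Figure D2:**
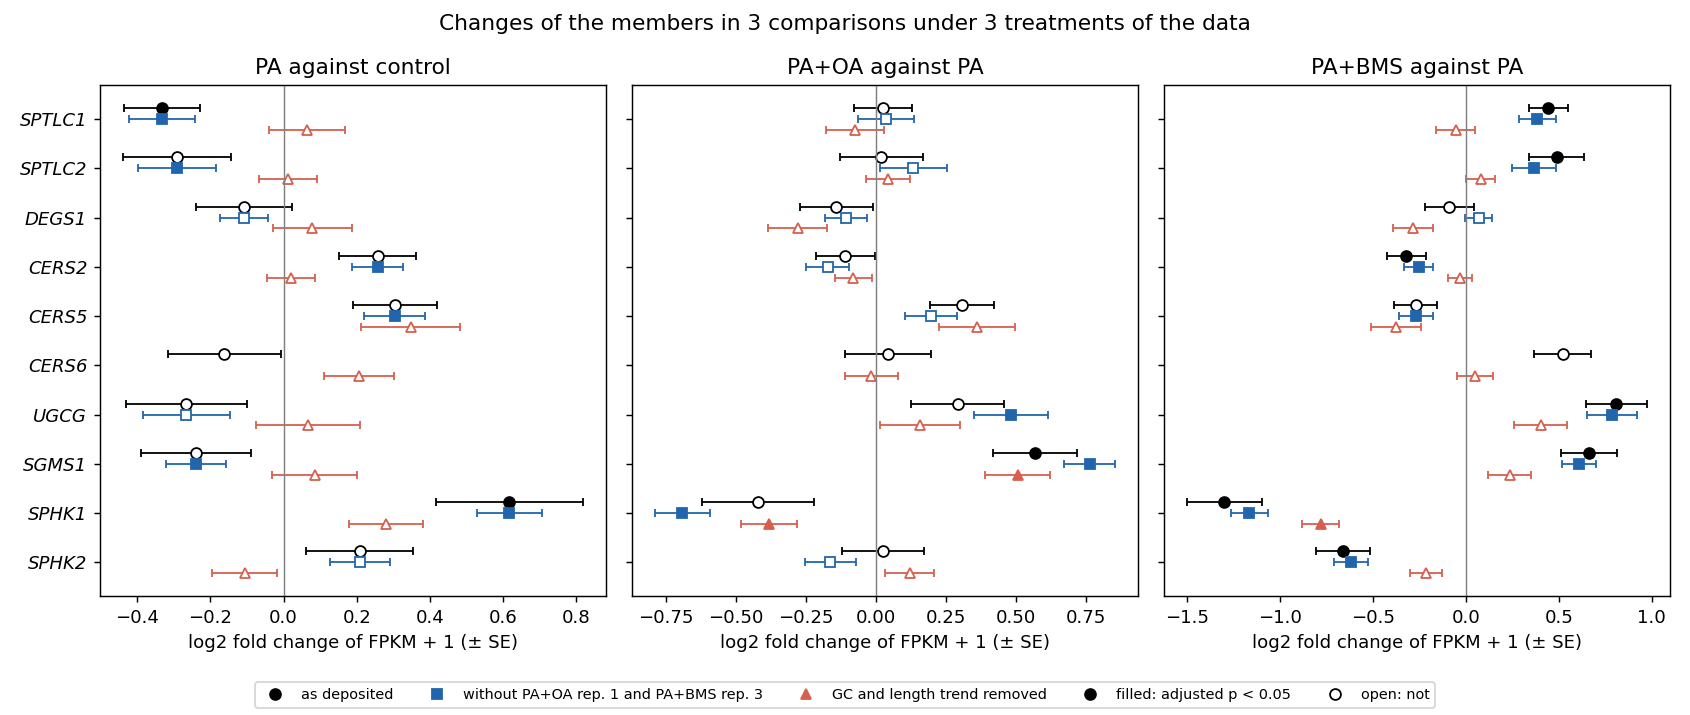
Log2 fold change of FPKM + 1 with its SE for the 10 genes, in 3 panels, 1 for each of the main comparisons. Black circles use the values as deposited, blue squares leave out PA+OA replicate 1 and PA+BMS replicate 3, red triangles have the GC and length trend removed, and filled symbols have an adjusted p under 0.05. SPHK1 in PA+BMS against PA is filled under all 3, at -1.30, -1.16 and -0.78, and CERS6, for which no test is given, is drawn open throughout and has no blue square because it no longer passed the filter.

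PA+BMS was set against PA to ask what BMS-309403 did in the presence of palmitate. SPHK1 fell by 1.30 (SE 0.20, limma adjusted p = 0.00247), with a mean of 16.5 ± 2.66 FPKM in PA+BMS and 41.7 ± 2.48 FPKM in PA, a ratio of 0.395. SPHK2 fell by 0.66 (SE 0.15, limma adjusted p = 0.00644), with a mean of 2.63 ± 0.20 FPKM in PA+BMS and 4.74 ± 0.34 FPKM in PA. UGCG rose by 0.81 (SE 0.17, limma adjusted p = 0.00503), with a mean of 4.16 ± 0.33 FPKM in PA+BMS and 1.95 ± 0.28 FPKM in PA, a ratio of 2.14. SGMS1 rose by 0.66 (SE 0.15, limma adjusted p = 0.00699), with a mean of 9.05 ± 0.90 FPKM in PA+BMS and 5.34 ± 0.27 FPKM in PA. Both subunits of serine palmitoyltransferase were higher as well, SPTLC1 by 0.44 (limma adjusted p = 0.00791) and SPTLC2 by 0.49 (limma adjusted p = 0.0176), and CERS2 fell by 0.32 (limma adjusted p = 0.0239). In all, 4 of the 9 genes rose and 3 fell, where 54.5% of all tested genes were called, 25.2% upward and 29.4% downward. The median of the 9 was -0.088, against -0.044 over all tested genes. CERS6 had a difference of 0.52 on the log2 scale, given without a test. With 1 library left out at a time, SPHK1, SPHK2, UGCG, SGMS1 and SPTLC1 were called in all 12 fits. SPTLC2 lost its call without PA+BMS replicate 3 or PA replicate 2 (limma adjusted p = 0.0681 to 0.0705), and CERS2 without PA+BMS replicate 3 or PA replicate 1 or 2 (limma adjusted p = 0.0694 to 0.0850).

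This contrast ran along GC content. Across 11848 tested genes with a sequence, log2 changes in PA+BMS against PA had a Spearman rho of -0.72 with transcript GC, given as a description. It was 0.67 in PA against control and -0.21 in PA+OA against PA. The sphingosine kinases have transcripts rich in G and C, 65.5% for SPHK1 and 63.2% for SPHK2, and CERS2 has 53.8%, whereas the 4 genes that rose have between 39.8% and 43.8%. DEGS1, at 43.6%, lies within that range and was at -0.088, without a call. With the trend removed, 1 of the 9 genes was called, where 23.2% of all tested genes were. This was SPHK1, at -0.78 (limma adjusted p = 0.00137). UGCG was then at 0.40 (limma adjusted p = 0.0602), SGMS1 at 0.24 (limma adjusted p = 0.145) and SPHK2 at -0.21 (limma adjusted p = 0.0943), while SPTLC1 turned to -0.054 and CERS2 was at -0.032. Whether GC content as such, in the cells or in library making, moved these values was not tested. The summed bile duct and simple epithelial, stellate or fibroblast, macrophage and endothelial markers were each lower in all PA+BMS libraries than in all PA libraries, and their part was not tested. With library totals set equal, the median of all genes in this contrast shifted to 0.30 and the calls split into 5010 higher and 1179 lower genes, against 2982 higher and 3481 lower as deposited. SPHK1, at -0.96, and SPHK2, at -0.43, kept their call there, as did UGCG, at 1.34, SGMS1, at 1.09, SPTLC1, at 0.85, and SPTLC2, at 0.92, whereas CERS2 reversed to 0.049.

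**Figure D3:**
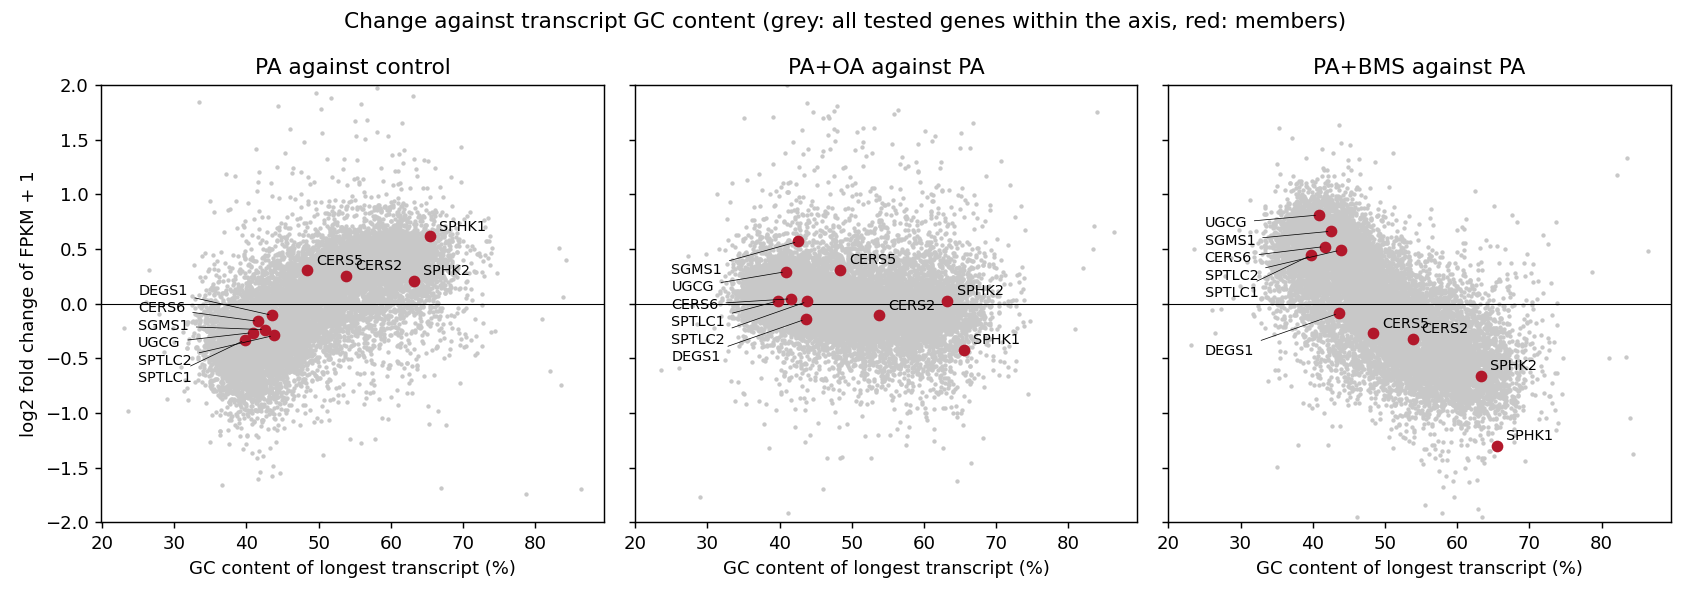
Log2 fold change of FPKM + 1 against the GC content of the longest transcript, in percent, for the tested genes within the axis (grey) and the 10 genes (red), with 1 panel for each of the main comparisons. In PA+BMS against PA the cloud slopes downward, and SPHK1, at 65.5% GC and -1.30, lies near its lower edge.

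The other contrasts give each group's distance to control and between the additions. In PA+OA against control, CERS5 rose by 0.61 (SE 0.11, limma adjusted p = 0.00206), with a mean of 9.29 ± 1.44 FPKM in PA+OA and 5.71 ± 0.56 FPKM in control, and SPTLC1 fell by 0.31 (limma adjusted p = 0.0389). These were 2 of 9, where 36.3% of all tested genes were called, 17.5% upward and 18.8% downward. The CERS5 value was 0.71 (limma adjusted p = 0.00188) with the GC and length trend removed, and it was called in all 12 fits that leave out 1 library. SPTLC1 was at -0.010 with the trend removed, and it lost its call without PA+BMS replicate 2, PA+OA replicate 1 or 3, control replicate 2 or 3 or any of the PA replicates (limma adjusted p = 0.0520 to 0.153). SGMS1, at 0.33 (limma adjusted p = 0.101) as deposited, was called with the trend removed, at 0.59 (limma adjusted p = 0.00214). CERS5 and SGMS1 were then 2 of 9, where 38.3% of all tested genes were called. In PA+BMS against control, SPHK1 fell by 0.68 (SE 0.20, limma adjusted p = 0.0495), the 1 gene of 9 called where 11% of all tested genes were called, 4.77% upward and 6.25% downward. It was at -0.50 (limma adjusted p = 0.00505) with the trend removed. Of the 12 fits that leave out 1 library, it was called in those without PA+OA replicate 1 or 3 and in no other (limma adjusted p = 0.0537 to 0.162). UGCG, at 0.55 (limma adjusted p = 0.0546), and SPHK2, at -0.45 (limma adjusted p = 0.0687), stood just outside the threshold. With the trend removed both were called, UGCG at 0.47 (limma adjusted p = 0.0394) and SPHK2 at -0.32 (limma adjusted p = 0.0259). That made 3 of 9, where 19.2% of all tested genes were called. In PA+BMS against PA+OA, SPTLC1, SPTLC2 and UGCG rose and CERS5, SPHK1 and SPHK2 fell, 6 of 9 where 49.6% of all tested genes were called, 23.1% upward and 26.4% downward. There CERS5 fell by 0.58 (SE 0.11, limma adjusted p = 0.00363) and was at -0.74 with the trend removed. With the trend removed, the 3 that fell were still called and the 3 that rose were not, SPTLC1 being at 0.019, SPTLC2 at 0.037 and UGCG at 0.24. SPHK1 was then at -0.40 and SPHK2 at -0.33, against -0.88 and -0.69 as deposited. Without the 2 libraries that stood apart, SPHK1 was at -0.47 and still called. SPTLC2, then at 0.23 (limma adjusted p = 0.210), and UGCG, at 0.30 (limma adjusted p = 0.152), were not. That left 4 of 9, where 21.7% of all tested genes were called. SPTLC2 lost its call without PA+BMS replicate 3 or PA+OA replicate 1, and UGCG without these or PA+BMS replicate 2 (limma adjusted p = 0.0586 to 0.0920 over both genes), UGCG being at 0.33 without PA+OA replicate 1, against 0.52. Comparisons that share a group share its libraries, so their values are not independent of each other.

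The rest of the pathway was read from a list of 62 genes, members included, of which 43 were tested and 42 counted. Palmitate against control gave 4 rises and 5 falls, where 12.8% of all tested genes were called upward and 14.8% downward. The ceramide release list joins sphingomyelinases, glucosylceramidases, lysosomal hydrolases and ceramidases, so not every gene on it yields ceramide. Its 11 counted genes had a median of 0.29 and held 3 of the 4 rises. They were GBA2, which cleaves glucosylceramide outside the lysosome, at 0.54 (limma adjusted p = 0.00951), the lysosomal galactosidase GLB1, at 0.51, and the acid sphingomyelinase SMPD1, at 0.47. With the GC and length trend removed, GBA2 was at 0.24, GLB1 at 0.34 and SMPD1 at 0.071, and none of these 3 was called by limma. With 1 library left out at a time, GBA2 was called in all 12 fits, GLB1 in 6 and SMPD1 in 5 (limma adjusted p up to 0.138 and 0.171), the calls being lost without any PA replicate, control replicate 2 or 3 and, for GLB1, PA+OA replicate 2 or, for SMPD1, PA+BMS replicate 1 or 2. With library totals set equal, GBA2 was at 0.30 (limma adjusted p = 0.0875), GLB1 at 0.24 and SMPD1 at 0.21, and again none was called. Among the falls were SPTSSA, the small subunit of serine palmitoyltransferase, by 0.70 (limma adjusted p = 0.00362), and B4GALT5, which makes lactosylceramide, by 0.63 (limma adjusted p = 0.0128). Both were also called with the trend removed, at -0.39 and -0.62. SPTSSA was called in all 12 fits that leave out 1 library, and B4GALT5 in 9, not without PA replicate 2 or control replicate 2 or 3 (limma adjusted p up to 0.0605). UGT8, which makes galactosylceramide, fell by 0.61 and ORMDL1, a negative regulator of serine palmitoyltransferase, by 0.36, and neither was called once the trend was removed, at -0.30 and -0.066. UGT8 lost its call without PA replicate 2 or 3 or control replicate 2 or 3, and ORMDL1 without PA+BMS replicate 1, PA replicate 1 or 3 or control replicate 2 or 3 (limma adjusted p up to 0.104 and 0.150).

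In PA+OA against PA, 1 of the 42 rose, SGMS1, and 2 fell, where 4.01% of all tested genes rose and 3.91% fell. CERK, the ceramide kinase, had a mean of 7.81 ± 0.69 FPKM in PA+OA and 13.9 ± 1.06 FPKM in PA (SD, n = 3 each), a fall of 0.76 on the log2 scale (SE 0.11, limma adjusted p = 0.00171). It was at -0.74 with the trend removed and was called in all 12 fits that leave out 1 library. B4GALT5 fell by 0.60 (limma adjusted p = 0.0286) and was at -0.59 (limma adjusted p = 0.00544) with the trend removed. With library totals set equal it was at -0.60 and not called (limma adjusted p = 0.197), and it lost its call without any of the PA replicates (limma adjusted p up to 0.112). In PA+BMS against PA, 15 rose and 12 fell, where 25.2% of all tested genes were called upward and 29.4% downward. The ceramide use list joins enzymes of sphingomyelin, glycosphingolipid and ceramide 1-phosphate synthesis with lipid transfer proteins. Not every gene on it acts on ceramide. Of its 10 counted genes, 6 rose and 1 fell, with a median of 0.59. Of the 11 counted on the ceramide release list, 2 rose and 5 fell, with a median of -0.40. With the trend removed, 7 of the 42 were called where 23.2% of all tested genes were. On the ceramide use list, 1 then rose, GLTP, a glycolipid transfer protein, and 0 fell, with a median of 0.23. On the ceramide release list, 1 rose, SMPD1, and 0 fell, with a median of -0.042. The medians over all tested genes were 0.028 for PA against control, -0.0024 for PA+OA against PA and, for PA+BMS against PA, -0.044, and the backgrounds given above for values as deposited apply to the other counts.

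Among pathway genes outside the 10, the largest called rises in PA+BMS against PA were the sphingosine 1-phosphate phosphatase SGPP1, at 0.81, the fatty aldehyde dehydrogenase ALDH3A2, which acts after sphingosine 1-phosphate lyase, at 0.80, the ceramide phosphoethanolamine synthase SAMD8, at 0.79, and UGT8, at 0.66. The largest called falls were the neutral sphingomyelinase SMPD2, by 1.01, ORMDL2, a regulator of serine palmitoyltransferase, by 0.72, the lipid phosphate phosphatase PLPP2, by 0.71, and PSAP, the precursor of the saposins that assist lysosomal sphingolipid breakdown, by 0.71. With the GC and length trend removed, ALDH3A2, at 0.58, ORMDL2, at -0.73, and PLPP2, at -0.73, were still called by limma, and the other 5 were not. PSAP was also not called with library totals set equal (limma adjusted p = 0.164) or by quantile normalization (limma adjusted p = 0.491).

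**Figure D4:**
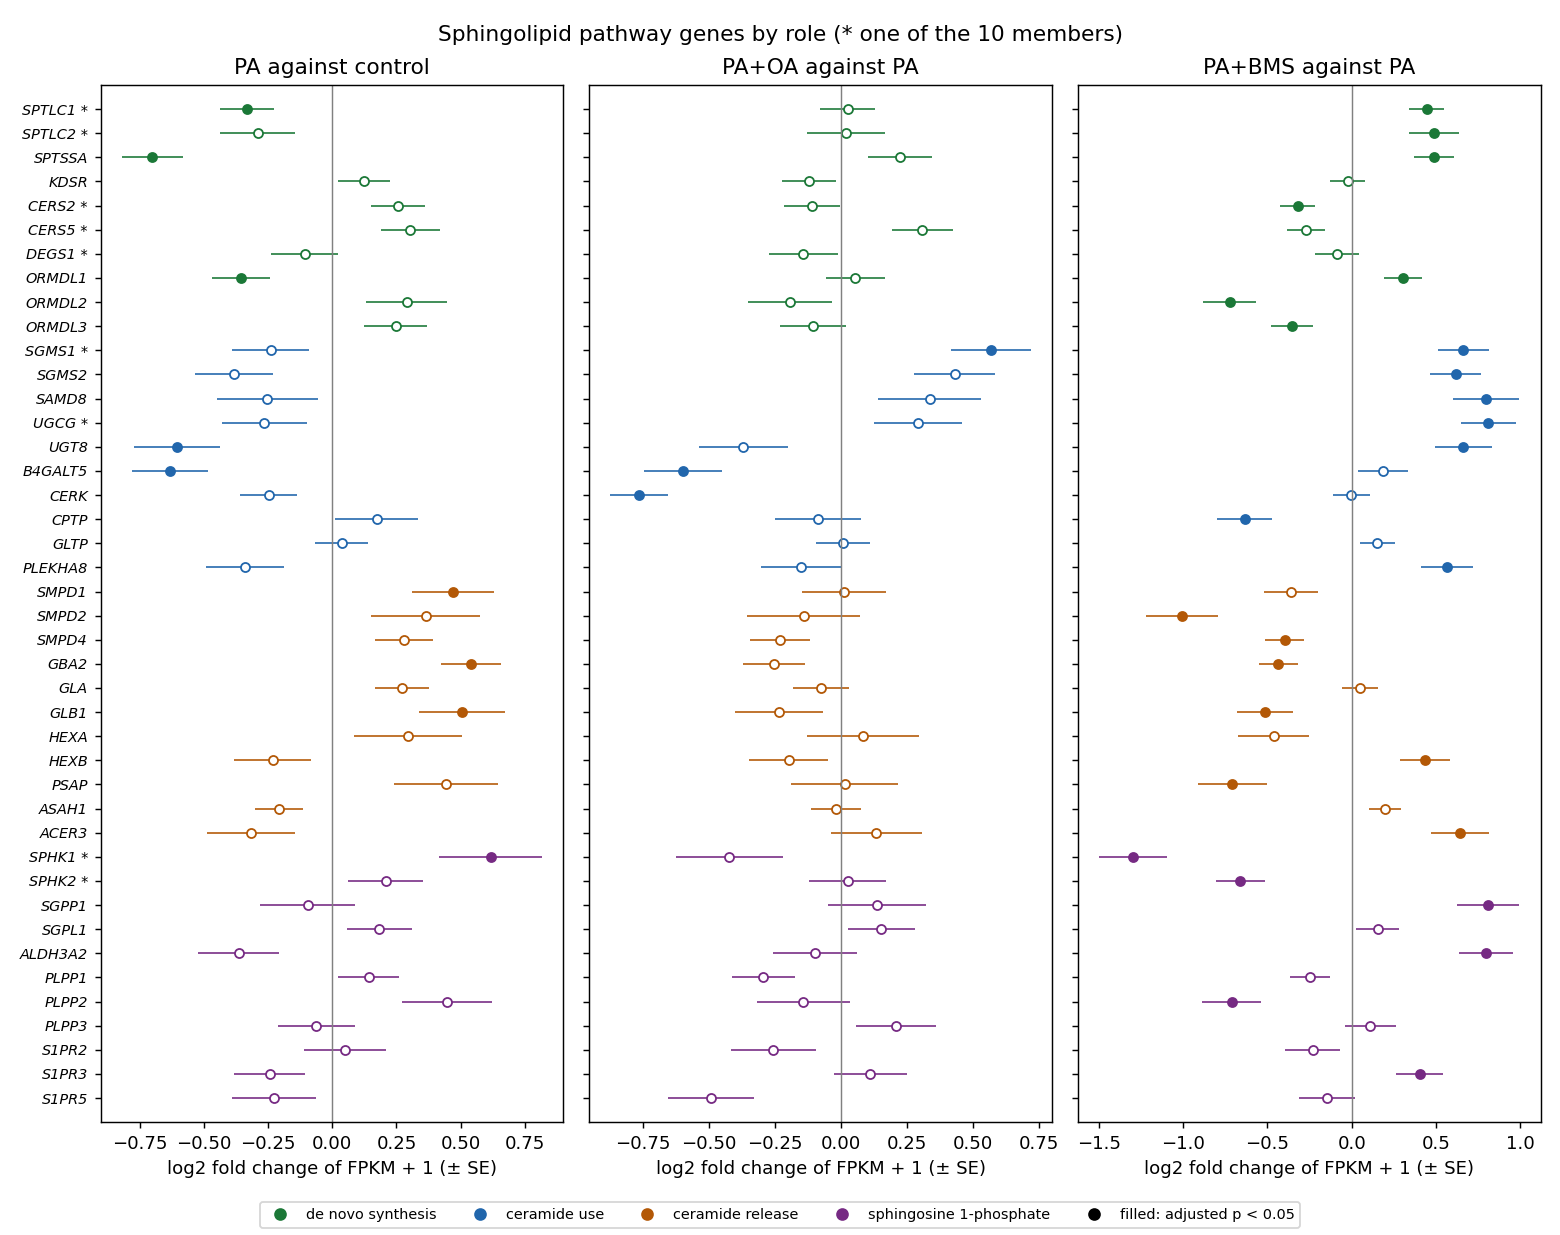
Log2 fold change of FPKM + 1 with its SE for the 42 counted pathway genes in 3 comparisons, coloured by role, with filled symbols for an adjusted p under 0.05 and an asterisk for the genes among the 10. In PA+BMS against PA, 6 of the 10 genes on the ceramide use list are filled to the right of 0. On the ceramide release list, 5 of the 11 are filled to the left, all with values as deposited. Of all tested genes, 25.2% were called upward and 29.4% downward in that comparison.

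The genes whose pattern over the 12 libraries was most like that of the 3 members with the smallest p over the 4 groups were taken by Pearson's r of log2(FPKM + 1), among 10124 genes. For SPHK1 these were SCARB1 (r = 0.99), CTDNEP1 (r = 0.99) and EEF1AKMT4 (r = 0.98). With the GC and length trend removed, r was 0.93 for SCARB1, 0.63 for CTDNEP1 and 0.94 for EEF1AKMT4. For CERS5 they were CHPF, AGFG2 and SH3TC1, and for SPHK2 they were WDR74, CCDC28B and DUS3L, at between 0.98 and 0.99, and between 0.82 and 0.91 with the trend removed. The libraries share the group differences and the GC component, so these values describe likeness only.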

How the data were processed

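Poly(A)-selected RNA was sequenced as read pairs, per the labels' protocols. Tools listed in the submitters' processing notes, with no role stated, are CASAVA, featureCounts 1.5.0-p3 and HISAT2 2.0.5. Neither the genome build nor the strand setting is given in the sources used here. All 58735 gene identifiers and positions equalled GENCODE 29 on GRCh38. The values deposited by the authors are FPKM. Each was a whole multiple of 1 read (100% of values, tolerance 0.001), which gave the depths in reads. The library size implied by the FPKM was 0.827 to 1.14 times the recovered total. No source states the scaling used. It was 0.888, 0.925 and 0.976 in PA, below every PA+BMS library (1.13, 1.14 and 1.09) and every control library (1.03, 1.10 and 1.04). In PA+OA it was 0.827, 1.03 and 1.03. Fold changes as deposited carry this factor, which differs between groups. Median-of-ratios scaling changed neither the median log2 change nor the number of calls over all genes in the 6 comparisons. The deposited FPKM thus already carry that scaling, which the factor reflects, and this alternative is no separate check. Recovered depth itself bears on counting error only.

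Genes at 1 FPKM or more in 3 or more libraries were tested on log2(FPKM + 1), a pseudocount of 1, with limma 3.58.1 (R 4.3.3). The fit had 1 coefficient per group over the 12 libraries, 8 residual degrees of freedom and a trended prior. Tests were two-sided, Benjamini-Hochberg adjusted over all tested genes within each of 6 comparisons at 0.05, and intervals are 95%. Fold changes on this scale understate the change of low genes. The GC and length trend was removed with natural splines (5 degrees of freedom). Other alternatives were a pseudocount of 0.1, a filter at 5 FPKM or none, median-of-ratios, equal-total and quantile scaling, voom on recovered reads, only the 2 groups compared, a replicate block, and leaving out libraries.

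The genes, lists and alternatives were chosen with earlier results of these data known. All 10 genes are named, with up to 4 called rises and 4 called falls of other pathway genes in each of 3 comparisons, and the genes of like pattern were taken for the 3 members with the smallest F-test p. Same-numbered replicates were not paired in the main fit. Their correlations were mixed (9 of 18 over 0.1, from -0.28 to 0.56), which does not settle whether they belong together. Within every group the replicates varied beyond sampling noise. Apart from the 62 listed genes, 1 pathway gene is not reported here. The procedure was tested on simulated data. These had the same extra spread for every gene, no GC trend and no libraries standing apart, so the test does not cover those features here. Figures were drawn with matplotlib 3.10.9.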

Additional observations from a re-analysis of the deposited data

How the results depend on the processing

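Counts are of the 9 genes called, each followed by the percentage of all tested genes called in the same fit. With the GC and length trend removed they were 0 (16.4%) for PA against control, 2 (13.4%) for PA+OA against PA, 1 (23.2%) for PA+BMS against PA, 3 (19.2%) for PA+BMS against control and 3 (33.9%) for PA+BMS against PA+OA. In that fit SPTLC1 (0.064), SPTLC2 (0.013), DEGS1 (0.079), CERS6 (0.21), UGCG (0.067), SGMS1 (0.085) and SPHK2 (-0.11) reversed for palmitate against control, SPTLC1 (-0.074) and CERS6 (-0.016) in PA+OA against PA, and SPTLC1 (-0.054) in PA+BMS against PA. Without the 2 libraries that stood apart the counts were 6 (57.6%) for PA against control, 3 (25.7%) for PA+OA against PA, 4 (39.7%) for PA+OA against control and 4 (18.5%) for PA+BMS against control, with SPHK2 (-0.16) reversed in PA+OA against PA and DEGS1 (0.069) in PA+BMS against PA. Library totals set equal gave 1 (20.7%) for PA against control and 0 (4.46%) for PA+OA against PA, and reversed CERS2 (-0.015) and SPHK2 (-0.021) in PA against control and DEGS1 (0.29), CERS2 (0.049) and CERS5 (0.066) in PA+BMS against PA. Quantile normalization gave 2 (12.9%) for PA+BMS against control and reversed SPTLC2 (-0.026) and SPHK2 (-0.024) in PA+OA against PA and DEGS1 (0.36) and CERS2 (0.022) in PA+BMS against PA. A filter at 5 FPKM, which removes genes, left 4 (64.6%) for PA+BMS against PA and 3 (57.6%) for PA+BMS against PA+OA. With no filter the counts were 0 (5.21%) for PA against control, 0 (2.65%) for PA+OA against PA, 1 (11.4%) for PA+OA against control and 0 (2.96%) for PA+BMS against control. With only the 2 groups compared they were 4 (53.4%) for PA against control, 0 (4.44%) for PA+OA against PA, 1 (28.5%) for PA+OA against control, 3 (11%) for PA+BMS against control and 3 (21.5%) for PA+BMS against PA+OA. Voom gave 2 (12.1%) for PA+BMS against control. Other counts moved too. PA+BMS against PA had 8 (56.1%) without both libraries and 8 (59.7%) with only the 2 groups compared. It had 6 (39.8%) with equal totals and 6 (14.4%) with no filter. PA+BMS against PA+OA had 4 (21.7%) without both libraries, 7 (47.5%) by quantile normalization and 4 (13.2%) with no filter. PA+OA against control had 3 with equal totals (29.9%) or quantile normalization (38.8%). Unlisted counts equalled those as deposited. Wherever limma called 0 of the 9, between 1 and 4 of them had an unadjusted p under 0.05, and voom called 2 (29.7%) for PA against control and 1 (8.15%) for PA+OA against PA. Where no cause is stated, the cause was not tested.

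With 1 library left out at a time, counts ran from 0 to 4 (6.79% to 45.6% of all tested genes) for PA against control, 0 to 3 (3.96% to 16.2%) for PA+OA against PA, 5 to 8 (31.4% to 63.1%) for PA+BMS against PA, 1 to 3 (21.1% to 42.7%) for PA+OA against control, 0 to 4 (5.5% to 19.8%) for PA+BMS against control and 4 to 6 (25.9% to 53.2%) for PA+BMS against PA+OA. In these fits CERS6 (-0.046 to 0.12), SPHK2 (-0.16 to 0.16), SPTLC1 (-0.033 to 0.072) and SPTLC2 (-0.066 to 0.13) changed sign in PA+OA against PA, as did DEGS1 (-0.20 to 0.069) in PA+BMS against PA.

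Correlations between same-numbered replicates were mixed, so whether the numbers pair the libraries is not settled. The replicate block gave 3 (39.2%) for PA against control, 8 (59.7%) for PA+BMS against PA and 2 (14.4%) for PA+BMS against control, and left the other counts as they were. The block with the trend removed gave 0 (20.4%) for PA against control, 2 (14.6%) for PA+OA against PA, 3 (29.1%) for PA+BMS against PA, 3 (21.3%) for PA+BMS against control and 3 (37.8%) for PA+BMS against PA+OA, with the same log2 values as the trend removal alone.

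Of the 42 pathway genes, calls in PA against control numbered 9 (27.6%), but 6 (16.4%) with the trend removed, 27 (57.6%) without both libraries, 20 (53.4%) with only the 2 groups compared and 3 (5.21%) with no filter. In PA+OA against PA they numbered 3 (7.91%), but 6 (13.4%) with the trend removed, 18 (25.7%) without both libraries and 1 with no filter (2.65%), with equal totals (4.46%) or with only the 2 groups (4.44%). In PA+BMS against PA they numbered 27 (54.5%), but 7 (23.2%) with the trend removed. With 1 library left out they ran from 2 to 18, 1 to 8 and 20 to 30 in these comparisons. With library totals set equal, calls over all genes split into 486 higher and 2731 lower in PA against control, against 1518 and 1754 as deposited, into 1355 and 3304 for PA+OA against control, against 2075 and 2232, and into 4789 and 1527 for PA+BMS against PA+OA, against 2744 and 3134. CERS6, at 57 to 282 reads, and UGCG, at 123 to 459 reads, rest on the fewest reads of the 10 genes.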

Other observations

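Several isoforms of the same enzymes stayed below the level of testing. SPTLC3, the alternative catalytic subunit of serine palmitoyltransferase, was between 0.439 and 0.657 FPKM in PA+BMS libraries, 0.0929 and 0.260 FPKM in PA+OA, 0.134 and 0.211 FPKM in PA and 0.308 and 0.500 FPKM in control. Of the other ceramide synthases, CERS1 reached 0.542 FPKM, in PA, CERS4 0.472 FPKM, also in PA, and CERS3 0.0350 FPKM. DEGS2, the desaturase that also makes phytoceramide, stayed at or below 0.140 FPKM. The alkaline ceramidase ACER1 and the small subunit SPTSSB were at 0 in all 12 libraries, where a count of 0 allows up to 3 reads in a group, or 0.137 FPKM for ACER1 in PA+OA. B4GALT6, a lactosylceramide synthase, ran from 0.823 to 1.67 FPKM in PA+BMS libraries, 0.0995 to 0.375 FPKM in PA+OA, 0.331 to 0.602 FPKM in PA and 0.416 to 0.586 FPKM in control, so that every PA+BMS library was above every other library. It did not reach 1 FPKM in 3 libraries, so no p is given. These genes come from the same pathway list, and the ones named were picked after their values were seen.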
